A study of Mus musculus with 2 samples.

Results

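Mir204 and Mir211 are a pair of sister microRNA (miRNA) genes that lie in introns of 2 related channel genes, Trpm3 and Trpm1. They were taken by gene name from the GENCODE M21 annotation and are 2 of the 2202 miRNA genes counted. In the juvenile hippocampus Mir204 was a moderately abundant miRNA gene at 608 ± 68.8 CPM (counts scaled to a total of 1000000 over all miRNA genes) (SD, n = 2). Mir211 was close to the limit of counting at 2.55 ± 2.40 CPM. Small RNA was sequenced in 2 libraries, the labels' biological replicates 1 and 2. Both came from male mice aged 25 days, of the first-generation hybrid strain B6CASTF1/J. No treatment or induced mutation was named, and there was no other group. The labels call the tissue "layer of hippocampus" and give the libraries separate biosamples but the same donor entry, so the spread between them may be partly technical. A comparison of the libraries measures only that spread.

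miRNAs are short RNAs that pair with target mRNAs mainly through the seed, bases 2 to 8 of the mature strand, and lower their expression. Each hairpin precursor carries a 5p and a 3p arm that can give a mature miRNA, and a miRNA inside an intron is often made from the transcript of its host gene. miR-204 is known as an abundant miRNA of the choroid plexus, the retinal pigment epithelium and the lens. miR-211 is best known from melanocytes, where its host Trpm1 is driven by the pigment cell factor MITF. Trpm3 encodes a calcium-permeable cation channel of sensory neurons, brain and choroid plexus, and Trpm1 encodes the channel that retinal ON bipolar cells use to respond to light. The host mRNAs were not measured here.

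The mature strands show how near the sisters are to each other. Sequences are those of RefSeq on GRCm38.p6, 5′ to 3′, with the seed in capitals. Both members matched an entry, and the hairpins were identical to the GENCODE M21 precursors.

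mmu-miR-204-5p: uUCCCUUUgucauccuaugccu

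mmu-miR-211-5p: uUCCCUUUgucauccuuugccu

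mmu-miR-204-3p: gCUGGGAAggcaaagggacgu

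mmu-miR-211-3p: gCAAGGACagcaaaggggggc

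The 5p strands have the same seed and 21 of 22 bases in common. Counted from the 5′ end, the single substitution is A17U, with the base of miR-204-5p first. The 3p strands agree at 14 of 21 positions and have different seeds. Among the 1738 mature mouse miRNAs in the table, 1 other, miR-7670-3p, has the 5p seed. Beyond the seed it is a different sequence, and it is shown because it completes the seed family.

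mmu-miR-7670-3p: uUCCCUUUcugaauaucuguaga

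Its gene Mir7670 had 0 counts in replicate 2 and 1 count in replicate 1, so among the genes with this seed nearly all assigned reads were those of Mir204. The 3p seed of miR-204 is shared with miR-7684-5p, whose gene had 0 counts in both libraries. No other listed miRNA has the 3p seed of miR-211.

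Mir204 (ENSMUSG00000065507.3) lies on the plus strand of mm10 at chr19:22750605-22750672. It sits in intron 6 of the principal Trpm3 transcript, a gene of 856365 bases on the same strand. That intron runs from 22733172 to 22766633, and the hairpin starts after 17433 of its 33462 bases. Mir211 (ENSMUSG00000065585.1) lies on the plus strand at chr7:64205806-64205911. It also sits in intron 6 of its host's principal transcript, from 64204594 to 64208275, in the smaller gene Trpm1 of 115941 bases. All 18 Trpm3 transcripts and all 12 Trpm1 transcripts that span the hairpins carry them in an intron, so neither overlaps an annotated exon of its host. The hairpins are shown to place the arms, with both mature strands in capitals.

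Mir204: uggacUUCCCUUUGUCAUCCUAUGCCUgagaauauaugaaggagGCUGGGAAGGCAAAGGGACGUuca

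Mir211: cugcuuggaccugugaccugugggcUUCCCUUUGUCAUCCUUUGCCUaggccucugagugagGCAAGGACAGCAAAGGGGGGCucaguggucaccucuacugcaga

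Mir204 is annotated with 68 bases and Mir211 with 106. In both, 19 of the 22 bases of the 5p strand and 19 of the 21 bases of the 3p strand were paired in the structure predicted by RNAfold. The longest stretch the hairpins share is 17 bases, which ends just before the substitution. No other miRNA gene shares more than 12 bases with either hairpin on either strand. The first 16 bases of the 5p strands are identical, so reads within them that end before base 17 cannot be assigned to 1 of the sisters. Longer reads that stay within the 5p strand differ between the sisters at that base alone. The tables give counts per gene and hold no read sequences, so the arm a read came from and any misread base 17 cannot be seen in them.

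Reads counted on the strand of a miRNA gene numbered 5871233 in replicate 2 and 5183641 in replicate 1, or 36.7% and 37.3% of all reads. Reads aligned to several places, 43.2% in replicate 2 and 43.6% in replicate 1, are not assigned to genes. A gene without counts may still have had up to 0.511 CPM in replicate 2 and 0.579 CPM in replicate 1, the value of 3 counts. Intervals and limits cover counting error only, since no molecular identifiers are mentioned. Brain markers were plentiful, with summed levels of 35872 and 31270 CPM for the 7 neuronal genes and 6667 and 5248 CPM for the 2 oligodendrocyte genes in replicates 2 and 1. The defining neuronal genes Mir124a-1, Mir124a-2 and Mir124a-3 had 12, 1 and 9 counts in replicate 2, and 16, 0 and 2 in replicate 1. They share 18 or more bases with each other.

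How much of each sister did the hippocampus hold? Mir204 had 3283 counts in replicate 2 (559 CPM, 95% exact Clopper-Pearson interval 540.2 to 579) and 3403 in replicate 1 (656 CPM, 635 to 679). Mir211 had 5 counts in replicate 2 (0.852 CPM, 0.277 to 1.99) and 22 in replicate 1 (4.24 CPM, 2.66 to 6.43). Mir204 was thus far above the counting limit in both libraries, while the lower Mir211 value lay just above the limit that a count of 0 allows. With at least 10 counts in both libraries asked for, Mir204 was among the 445 detected genes (20.2% of all) and Mir211 was not. No count of either gene lay on the opposite strand, the unstranded column gave the same counts, and no other miRNA gene overlaps them. Reads from an overlapping miRNA gene therefore do not enter these values.

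**Figure D1:**
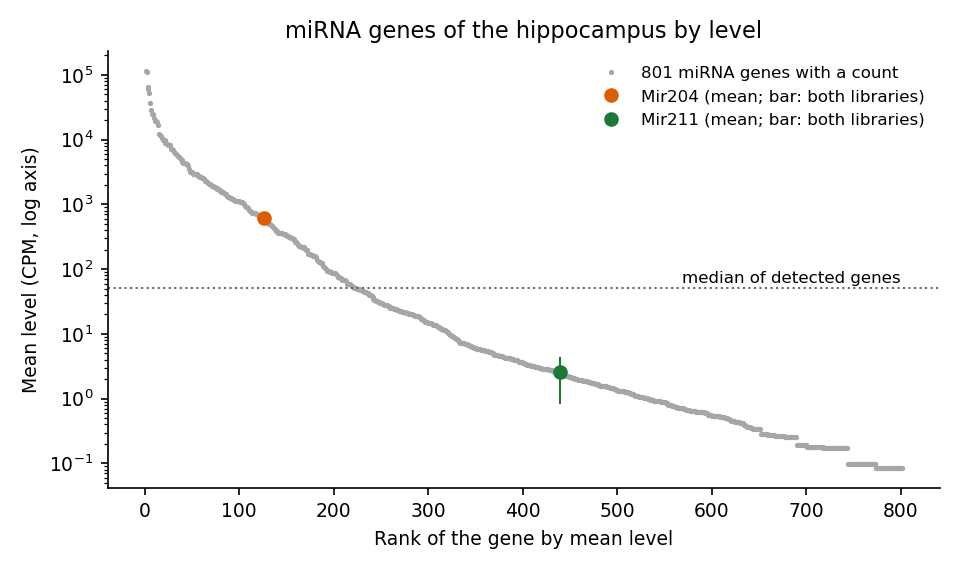
Mean level in CPM (log axis) of the 801 miRNA genes with a count, against their rank. Mir204 stands at rank 126 above the dotted median of the 445 detected genes (51.2 CPM), Mir211 stands at rank 439 below it, and vertical bars join the values of the 2 libraries.

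Mir204 ranked 126th of 2202 genes by mean level, 128th in replicate 2 and 117th in replicate 1. Its mean was 11.9 times the median of the detected genes, 51.2 CPM, and 71.7% of the detected genes lay below it. Mir211 ranked 439th, with 544th place in replicate 2 and 371st in replicate 1. The ranks cover assigned reads only.

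Within each library Mir204 supplied nearly all reads of the pair. Mir204 was 657-fold above Mir211 in replicate 2 (95% exact interval 281 to 2024) and 155-fold above it in replicate 1 (102 to 247). Its share of the pair's reads was 99.8% in replicate 2 and 99.4% in replicate 1. The intervals of the ratio do not overlap, so the ratio differed between the libraries by more than counting error, and in both it exceeded 100-fold. On the scale of log2(CPM + 1) the difference between the sisters was 8.24 in replicate 2 and 6.97 in replicate 1, with a mean of 7.61 ± 0.90 (SD, n = 2). The number of Mir211 reads limits the ratio, since Mir204 itself is known to within a few percent by counting. The sisters together took 0.0560% of assigned reads in replicate 2 and 0.0661% in replicate 1.

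**Figure D2:**
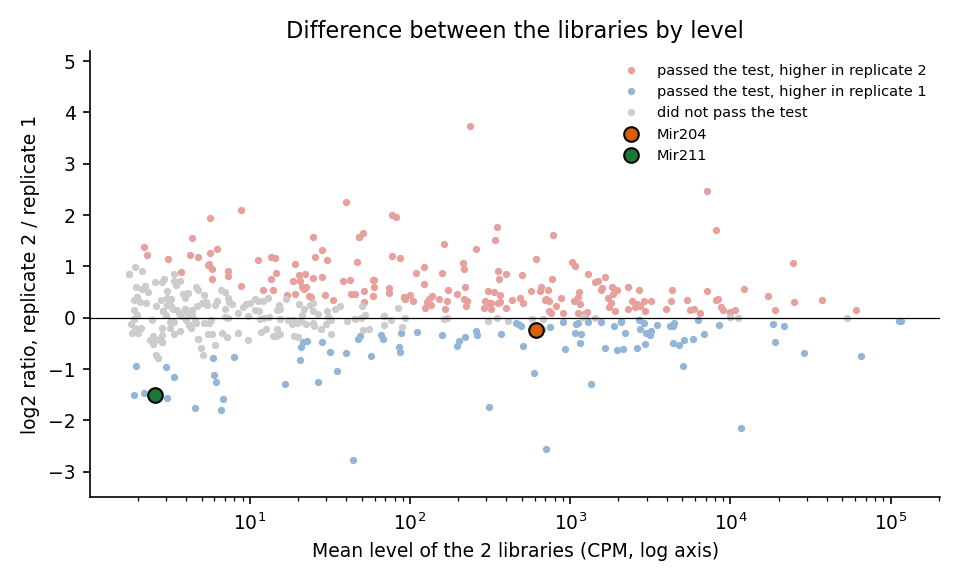
log2 ratio of replicate 2 over replicate 1 on the log2(CPM + 1) scale, against the mean level in CPM (log axis), for the 472 genes whose counts averaged 10 or more. Mir204 lies at -0.23 within the bulk of genes of its level, and Mir211 lies at -1.50 near the lower edge of the genes of low counts.

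Both sisters were lower in replicate 2 than in replicate 1, by a little for Mir204 and by several-fold for Mir211. Each gene was compared between the libraries with a 2-sided exact binomial test of its counts, adjusted by Benjamini-Hochberg over the 472 genes whose counts averaged 10 or more. This test takes reads as independent molecules and compares these libraries, not conditions. It called 282 of the 472 genes (59.7%), 186 higher in replicate 2 (39.4%) and 96 higher in replicate 1 (20.3%), so a call by itself says little about a gene. Both members passed and were among those higher in replicate 1. Mir204 had a log2 ratio of -0.23 (559 CPM in replicate 2, against 656 in replicate 1) with an adjusted p of 1.70e-10 in the exact binomial test. Mir211 had a log2 ratio of -1.50 (0.852 CPM against 4.24) with an adjusted p of 0.000702 in the same exact test. As a ratio of counts scaled to the totals, without a pseudocount, replicate 1 over replicate 2 was 1.17-fold for Mir204 (95% exact interval 1.12 to 1.23) and 4.98-fold for Mir211 (1.84 to 16.8).

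Set beside genes in the same broad class of depth, the difference in Mir204 was ordinary in absolute size and that in Mir211 was large. Of the 291 genes that averaged 100 or more counts, 100 (34.4%) had a smaller absolute log2 ratio than Mir204, and 82.8% of these 291 passed the test. The median absolute log2 ratio there was 0.34. With its sign the median was 0.17, opposite in direction to Mir204. Of the 181 genes with a mean count of 10 to under 100, 172 (95.03%) had a smaller absolute log2 ratio than Mir211, and 22.7% of these 181 passed the test. Mir211 averaged 13.5 counts, at the low end of that class, where counting error is larger than for most of it. The SD of Mir204 was 11.3% of its mean and that of Mir211 was 94.2%, both with counting error included, which is the larger for Mir211. Scaling by the trimmed mean of M-values (TMM) shifts each gene's ratio of replicate 2 over replicate 1, without a pseudocount, by -0.17 on the log2 scale. It splits the calls into 141 higher in replicate 2 and 137 higher in replicate 1. With TMM, Mir204 stood at -0.40 and Mir211 at -1.61, both still past the threshold. In bulk tissue, fewer cells that express a gene and less RNA per cell cannot be told apart.

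No neighbour in the order of levels differed from its member in the same direction in both libraries. Above Mir204 in mean level stood Mir300, Mir326 and Mir381 (659, 652 and 615 CPM), and below it Mir351, Mir134 and Mir146 (590.3, 580.2 and 572 CPM). Against each of these 6 genes Mir204 was higher in 1 library and lower in the other, so its place among them is not fixed beyond the spread. The same held for the 6 neighbours of Mir211, which are Mir7662, Mir124a-1, Mir7023, Mir6911, Mir378c and Mir6970, at means from 2.45 to 2.57 CPM. By distance over both libraries on the log2(CPM + 1) scale, the detected genes most like Mir204 were Mir134 (distance 0.17), Mir92-1 (0.19) and Mirlet7c-1 (0.27). Those most like Mir211 were Mir1943 (0.55), Mir6912 and Mir7073 (both 0.57), each at 10 counts in replicate 2, the lowest count searched. Mir211 itself is below that minimum. Over all genes tested, a search chosen after the values were seen, the nearest were Mir741 (distance 0.22), Mir196a-2 (0.24) and Mir6392 (0.41). The genes most like Mir204 did not change. With 2 libraries, this likeness is one of level and of 1 ratio only.

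Among the Trpm channel genes, Trpm3 and Trpm1 are the only hosts in this table. The annotated spans of Trpm2, Trpm4, Trpm5, Trpm6, Trpm7 and Trpm8 hold no counted miRNA gene. Trpm1 spans a further one, Mir6416, on the opposite strand and 44072 bases from Mir211. Mir6416 had 0 counts in both libraries, which allows up to 0.511 CPM in replicate 2 and 0.579 CPM in replicate 1.

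In assigned reads, the difference between sister miRNA genes in other related hosts varied, and some were as wide as that of Mir204 and Mir211. The wide ones involve Mir103 and Mir26a copies, for which reads aligned to several places are a limit. The only pair near balance had at most 21 counts per gene. Mir107, in the pantothenate kinase gene Pank1, stood above Mir103-1 in Pank3 by 8.46 on the log2(CPM + 1) scale in replicate 2 and 8.71 in replicate 1. It stood above Mir103-2 in Pank2 by 6.63 and 6.75. These differences bracket the 8.24 and 6.97 of Mir204 over Mir211. The Mir107 and Mir103 hairpins share 24 bases, more than the 17 of Mir204 and Mir211, and reads aligned to several places are not assigned. Mir103-1 and Mir103-2 each share 18 or more bases with 2 other miRNA genes, while Mir204 and Mir211 share that many with none. How far unassigned reads lower the Mir103 levels was not tested. Mir26b in Ctdsp1 exceeded Mir26a-1 by 8.57 and 6.23 and Mir26a-2 by 3.30 and 7.47, in replicates 2 and 1. Mir26a-1 and Mir26a-2 each share 18 or more bases with 1 other miRNA gene, so the limit of unassigned reads holds for them too. The copies of Mir128, which share 23 bases, and of Mir218, which share 22, were nearer to each other, with the same limit. Mir128-1 in R3hdm1 exceeded Mir128-2 in Arpp21 by 2.05 and 2.00, and Mir218-1 in Slit2 lay below Mir218-2 in Slit3, at -2.66 and -3.37. Mir208a and Mir208b, in the cardiac myosin genes Myh6 and Myh7, had at most 21 counts, and their difference had opposite signs, -0.11 in replicate 2 and 0.90 in replicate 1. The pairs were described and not tested against each other.

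**Figure D3:**
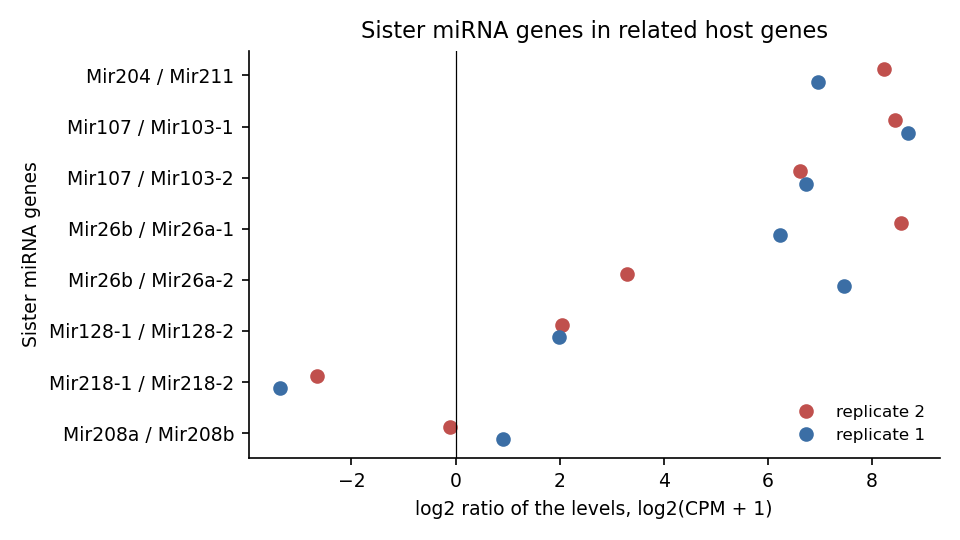
Difference in level between sister miRNA genes in related host genes, as log2 ratio on the log2(CPM + 1) scale, with 1 point for each library. Mir204 over Mir211 (8.24 in replicate 2 and 6.97 in replicate 1) lies in the range of Mir107 over the Mir103 copies and above the Mir128 pair. Reads aligned to several places are not assigned, a limit for the Mir103, Mir26a, Mir128 and Mir218 copies.

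Because miR-204 is known from choroid plexus and retinal pigment epithelium, its level was set beside lists of epithelial and of retinal and sensory miRNA genes. No list was of the retinal pigment epithelium itself. Of 5 genes of multiciliated and choroid plexus epithelium, 3 were detected, against 20.2% of all genes counted. The summed level of the 5 was 538 CPM in replicate 2 and 694 CPM in replicate 1. Mir34c, which acts in multiciliated cells, had 410.0 CPM in replicate 2 and 599.8 in replicate 1 and was lower in replicate 2, as was Mir204. Mir449a, of the same seed family, had 115 CPM in replicate 2 and 84.7 in replicate 1, the other direction. Mir34b had 12.6 and 9.84 CPM and did not pass the test. Mir449c had 4 counts in replicate 2 and 0 in replicate 1, and Mir449b had none. The median of the 5 genes was 11.2 CPM, against 0 over all genes counted and 608 for Mir204. Of the 3 genes tested, 1 was higher in replicate 2 and 1 in replicate 1, near the shares over all tested genes (39.4% and 20.3%). How far cells of this kind contribute to Mir204 was not tested.

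**Figure D4:**
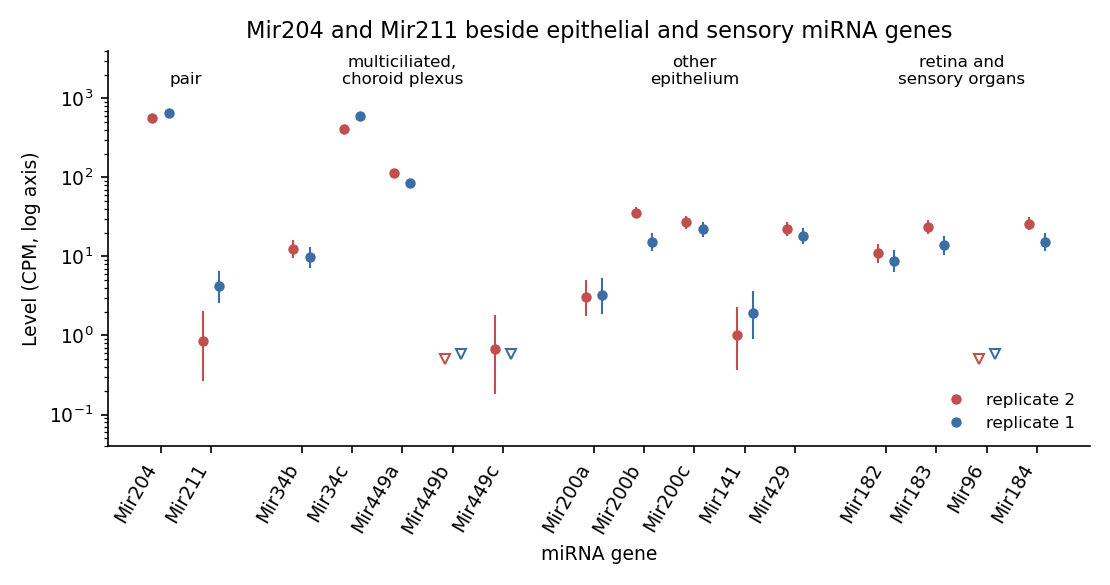
Level in CPM (log axis) in replicate 2 and replicate 1 of Mir204, Mir211 and the genes of 3 epithelial and sensory lists. Vertical lines are 95% exact counting intervals, and open triangles mark genes with 0 counts at the level that 3 counts would give. Mir204 lies above each listed gene in both libraries, with Mir34c nearest to it.

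Genes of other epithelia and of retina were present at much lower levels than Mir204. The 5 genes of the miR-200 family, which keep epithelial cells in their state, summed to 89.6 CPM in replicate 2 and 61.0 CPM in replicate 1. Of these 5, 4 were detected, against 20.2% of all genes counted. Of the 4 tested, Mir200b was higher in replicate 2 (35.9 CPM, against 15.2 in replicate 1) and the others did not pass. The 4 retinal and sensory genes summed to 60.5 CPM in replicate 2 and 38.2 CPM in replicate 1. Mir183 (23.5 CPM in replicate 2 and 13.9 in replicate 1) and Mir184 (25.9 and 15.4 CPM) were higher in replicate 2, Mir182 did not pass, and Mir96 had 0 counts in both. These 3 calls among the 7 genes tested lie near the share of all tested genes called higher in replicate 2 (39.4%). Vessel genes summed to 8794 and 9313 CPM in replicates 2 and 1, with Mir126a higher in replicate 2 and Mir143 and Mir145a higher in replicate 1. All 3 averaged 100 or more counts, a class in which 82.8% of genes passed the test. Of the 5 genes of liver and muscle, 2 were detected, against the same 20.2% of all genes. Mir122 had 36.1 CPM in replicate 2 and 20.4 in replicate 1. Mir206 had 142 and 76.6 CPM, against 559 and 656 CPM for Mir204. Mir1a-1 and Mir133a-1 had 0 counts in both libraries, and Mir1a-2 had 1 in each. These genes without detection share 18 or more bases with other miRNA genes.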

How the data were processed

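For each library the table the authors deposited holds raw counts of reads by miRNA gene in 3 columns, for both strands together, the gene's own strand and the opposite strand, with mm10 as build and GENCODE M21 as annotation per the text file deposited with them. The alignment was made by the authors, with aligner and counter not given in the sources used here. Reads aligned to several places stand in a row of their own. The 4 rows that name no gene were left out of library sizes.

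Counts on the gene's own strand were divided by their total over all genes to give CPM, and 1 CPM was added before taking log2. The exact binomial tests and Clopper-Pearson intervals used scipy 1.17.1, with Benjamini-Hochberg adjustment. With 1 group no coefficient can be fitted, so edgeR 4.0.16 (R 4.3.3) gave TMM factors and DESeq2 1.42.0 gave size factors. The binomial test was tried on simulated counts that held set fold changes and counting error, with no other spread between libraries. That check therefore says nothing about calls that arise from such spread. For these libraries the edgeR common dispersion gave a coefficient of variation of 0.32 beyond counting error. Hairpins were folded with RNAfold 2.7.2, and shared stretches were searched on both strands of all 2202 precursors. Genes named are the members, their 3 neighbours on each side in level, the 3 detected genes nearest in both libraries, miRNA genes in Trpm genes, seed sharers, 7 marker lists of 31 genes, and 7 other sister pairs. The members and lists were chosen with earlier results of these data known.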

Additional observations from a re-analysis of the deposited data

How the results depend on the processing

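The direction and the call of the difference between the libraries held for both genes in each scaling, strand column and count minimum tested. A count minimum changes the adjusted p but cannot change the ratio. The unstranded column holds the same counts of both genes and changes only the library totals. Log2 ratios ran from -0.41 to -0.22 for Mir204 and from -1.90 to -1.50 for Mir211. Scaling over all reads was used for levels only. With a minimum mean count of 100, Mir211 was not tested. The number of genes called lay between 242 of 291 tested, at a minimum mean count of 100, and 284 of 801 tested, with no minimum. The share called thus changed with the minimum. Levels moved with the total they were scaled to. Over all reads Mir204 averaged 225 CPM and Mir211 0.948 CPM. Without the 10 most abundant genes in the total, Mir204 averaged 1341 CPM and Mir211 5.70 CPM. With a pseudocount of 5 CPM the log2 ratio of Mir204 over Mir211 was 6.38. Mir204 ranked 99th among genes that share no 18 bases with another miRNA gene and 114th in the unstranded column. With a minimum of 100 counts, 268 genes were detected. Each library alone gave 559 to 656 CPM and rank 117 to 128 for Mir204, 0.852 to 4.24 CPM and rank 371 to 544 for Mir211, and a log2 ratio of 6.97 to 8.24 between them. Depth limits Mir211, since 5 counts in replicate 2 leave its level there uncertain several-fold. No paired analysis was possible because both libraries belong to 1 group.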
